A study of Mus musculus with 48 samples.

Results

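Serum of 3 allergic mice was compared with serum of 3 untreated mice, miRNA by miRNA, over 1211 miRNA entries of 1 count table. These 6 libraries are the only serum libraries in which allergic and untreated mice stand in the same count table, out of 48 libraries of airway fluid, airway cells, epithelium and serum in the series. The libraries of 1 count table are called a library set here, and these 6 are in set 2. That the libraries of a set were prepared together is not stated by the sample titles. All mice were C57BL/6. Allergic mice were injected intraperitoneally once a week for 3 to 4 weeks with 50 ug of ovalbumin, an egg protein, together with alum, an adjuvant. From 7 days after the last injection they breathed in 50 ug of ovalbumin in 20 ul of saline, placed in the throat, once a day for 3 days. Untreated mice had neither the injections nor the airway doses, so the comparison holds the effects of immunization and of airway challenge together. Blood of the allergic mice was taken on day 4 after the first airway dose, from the inferior vena cava after death through a 23 gauge needle, and each library came from the serum of 1 mouse. Ages are not given in the labels. Serum of 4 further allergic mice and of 4 immunized mice, which had the injections and then saline without ovalbumin in the airway, stands in library sets 3 and 4 and is used below only for reference.

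A miRNA is a short RNA cut from a hairpin precursor, whose left and right arms give the strands named 5p and 3p. It guides a silencing complex to messenger RNAs that pair with its seed, bases 2 to 8. miRNAs leave cells inside vesicles or bound to protein and are stable in serum, where red cells, platelets, white cells, endothelium and liver are known sources. In a bulk fluid, a smaller share of material from one cell type cannot be told apart from less of a miRNA per cell, and all levels below are relative to the other miRNAs of the same library.

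In allergic serum 7 miRNAs were higher and 20 were lower than in untreated serum among 328 entries with enough counts to test (edgeR's quasi-likelihood test, Benjamini-Hochberg adjusted p under 0.05). The miRNAs that rose were both strands of miR-34a, miR-29b-3p and miR-29c-3p, miR-342-3p, and miR-188-5p and miR-362-3p, which are neighbours on the X chromosome. Those that fell included miR-202-5p, both strands of miR-455 and of miR-296, miR-322-3p with its cluster members miR-351-5p and miR-503-3p, 6 miRNAs of the imprinted Dlk1-Dio3 locus, both strands of the liver miRNA miR-122, miR-31-5p, miR-193b-3p, and miR-34b-3p and miR-34c-5p. The share of entries called was 8.23% in all, 2.13% higher and 6.1% lower. In every one of the 27 called entries the 3 allergic libraries lay outside the range of the 3 untreated ones, against 29.6% of all entries tested (16.2% higher and 13.4% lower). The 27 were chosen by a test on these same 6 libraries, so their lack of overlap is no separate support. No entry was called by edgeR once allergic library 1 was left out, when the smallest adjusted p was 0.0607, 58 entries had an unadjusted p under 0.05 and DESeq2 called 17. The number called was 15 without allergic library 2, 16 without allergic library 3 and 17 without untreated library 3. On leaving out each library other than allergic library 1 in turn, 8 miRNAs stayed called (miR-34a-5p, miR-188-5p, miR-455-3p, miR-202-5p, miR-296-5p, miR-322-3p, miR-351-5p and miR-31-5p), and each of the other 19 lost its call at least once. None was called either with libraries scaled to their total counts instead of by TMM, when the smallest adjusted p was 0.0582, 48 entries had an unadjusted p under 0.05 and DESeq2 called 23.

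The mature sequences of the miRNAs that the comparison turns on are given 5′ to 3′ with the seed in capitals, from RefSeq on build GRCm38.p6, in which 24 of the 27 called entries had a match. The first set rose in allergic serum, together with miR-29a-3p, which edgeR did not call and which is shown because its seed is that of miR-29b-3p and miR-29c-3p.
miR-29b-3p: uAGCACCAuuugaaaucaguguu
miR-29c-3p: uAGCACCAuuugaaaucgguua
miR-29a-3p: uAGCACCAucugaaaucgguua
miR-34a-5p: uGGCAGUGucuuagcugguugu
miR-188-5p: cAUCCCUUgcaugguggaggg
miR-342-3p: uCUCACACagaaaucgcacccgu
miR-362-3p: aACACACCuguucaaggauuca

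The second set fell in allergic serum. It opens with miR-329-3p, whose seed is also that of miR-362-3p above, and with miR-351-5p, whose seed is that of miR-125a-5p and miR-125b-5p.
miR-329-3p: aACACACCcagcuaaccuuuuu
miR-351-5p: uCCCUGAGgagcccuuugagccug
miR-202-5p: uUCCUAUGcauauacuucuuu
miR-455-3p: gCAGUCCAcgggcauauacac
miR-296-5p: aGGGCCCCcccucaauccugu
miR-322-3p: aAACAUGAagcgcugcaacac
miR-127-3p: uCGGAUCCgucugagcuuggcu
miR-31-5p: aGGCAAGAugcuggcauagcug
miR-193b-3p: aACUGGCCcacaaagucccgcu

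**Figure D1:**
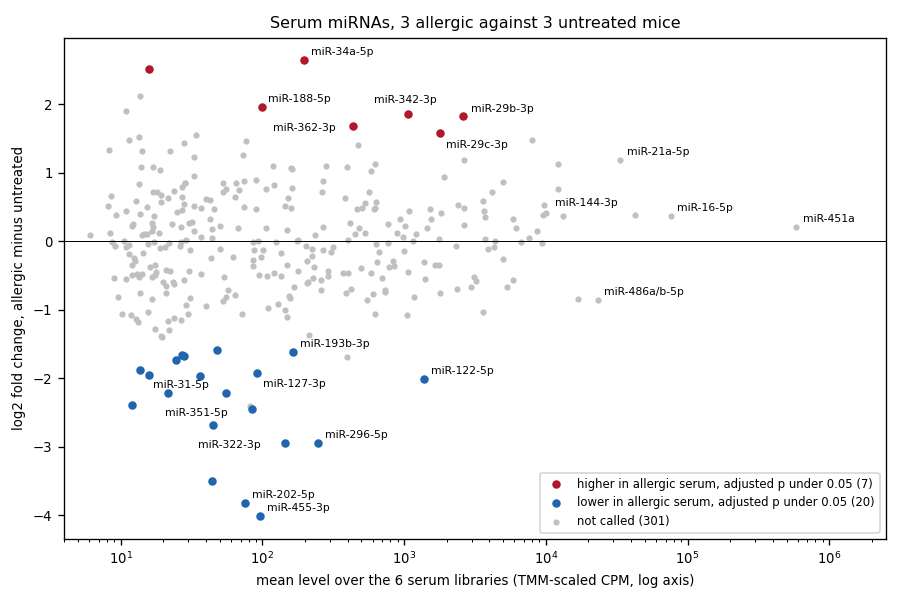
Each point is 1 of the 328 entries tested in serum, with its mean level in TMM-scaled counts per 1000000 (CPM, log axis) and its log2 fold change of allergic over untreated serum. The 7 called entries that were higher and the 20 that were lower lie over a wide range of levels, while the most abundant entry, miR-451a, lies near 0 at a log2 fold change of 0.22.

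Depth did not overlap between the groups, and this bears on every value below. Total miRNA counts were 2143704, 1518333 and 1193226 in allergic serum, against 137638, 890460.5 and 439937 in untreated serum, a 15.6-fold range over the 6 libraries. A count of 3, the limit that a count of 0 allows, was worth 1.93 to 2.31 CPM in allergic serum and 4.35 to 16.2 CPM in untreated serum, for counting error only. Libraries of allergic mice resembled each other (Pearson correlations of log2 CPM of 0.971 to 0.984), and untreated library 1, the shallowest, stood apart from every other (0.865 to 0.883). The median SD of log2 CPM over entries was 0.262 in allergic serum and 0.738 in untreated serum. With all 6 libraries thinned to 137631 counts, 174 entries could be tested, 6 were called, and over 10 such draws the number called was 3 to 11. Of the 27 called entries, 8 were tested in every draw, 4 in some and 15 in none, and the 12 that could be tested kept their direction in every draw. Among those tested in none were miR-455-3p, miR-455-5p, miR-202-5p and miR-351-5p. With untreated library 1 left out and the other 5 libraries thinned to equal depth, 23 of 262 entries were called, 16 of them among the 27.

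Red cells are a known source of unwanted miRNA in serum, and the groups overlapped in each measure of them. miR-451a, which is made almost only in red cells and their precursors, took 60.3%, 53.4% and 50.6% of the counts in allergic serum, against 44.3%, 64.8% and 46.8% in untreated serum (difference in means 2.83 percentage points, two-sided exact permutation p = 0.7, where 0.1 is the smallest p that 3 against 3 libraries can give). The whole red cell list, with miR-144 and miR-486, took 55.7% to 66.8% in allergic serum and 51.4% to 70.6% in untreated serum (exact permutation p = 0.9). The log2 ratio of miR-451a to miR-23a-3p, a miRNA that red cells hold little of and a usual gauge of red cell rupture, was 6.16, 5.10 and 4.74 in allergic serum, against 5.51, 7.02 and 4.61 in untreated serum (exact permutation p = 0.7). None of the 6 red cell entries tested was called, at a median log2 fold change of -0.49 against -0.01 for all entries tested.

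Among the 5 most abundant entries none was called by edgeR. Levels of miR-451a were 831400, 586300 and 465700 CPM in allergic serum, against 328400, 992700 and 298600 CPM in untreated serum, so that the groups overlapped. miR-16-5p, miR-144-3p and the joined entry of miR-486a and miR-486b also overlapped between the groups, with log2 fold changes of 0.38, 0.39 and -0.86. miR-21a-5p, which many activated and stressed cells make in quantity, was at 39910, 48900 and 50810 CPM in allergic serum, against 25950, 17120 and 17990 CPM in untreated serum. Its groups did not overlap, but at a log2 fold change of 1.19 ± 0.44 (SE) its adjusted p was 0.126 by edgeR. It was called by DESeq2 (adjusted p = 0.0396) and by edgeR with the dispersion shared over 14 serum libraries (adjusted p = 0.0471).

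miR-34a is induced by the tumour suppressor p53 and represses genes of the cell cycle. Levels of miR-34a-5p were 280.3, 359 and 393 CPM in allergic serum, against 16.2, 43.0 and 95.7 CPM in untreated serum. The log2 fold change was 2.64 ± 0.53 (SE), the largest of the entries that rose, with an adjusted p of 0.0075 by edgeR. It was 3.49 without untreated library 3 and 2.21 without untreated library 1 (edgeR adjusted p = 0.0444). Without allergic library 1 it was 2.73 and not called (edgeR adjusted p = 0.0646). At equal depth miR-34a-5p was called in 9 of 10 draws. miR-34a-3p, the other strand of the same hairpin, had 37, 40 and 40 counts in allergic serum and 0, 6 and 1 counts in untreated serum. It rose by 2.51 ± 0.65 (SE; adjusted p = 0.024), on so few counts in untreated serum that the size is poorly fixed, and without untreated library 2 the value was 4.59. The lowest value over the alternatives was 1.98, and miR-34a-3p was called in 2 of the 6 fits with 1 library left out. Both strands therefore moved the same way, and the gene lies on chromosome 4, with miR-34a-5p at chr4:150068473-150068494 on the plus strand (GRCm38.p6).

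The miR-29 family represses genes of collagen and other matrix proteins, and in mouse T cells it restrains the interferon gamma response. Its 3 mature 3p strands share 1 seed and come from precursors on chromosomes 1 and 6. Levels of miR-29b-3p were 3431, 4402 and 4375 CPM in allergic serum, against 976, 1066 and 1379 CPM in untreated serum. Levels of miR-29c-3p were 2438, 2959 and 2616 CPM in allergic serum, against 485, 870.1 and 1319 CPM in untreated serum. In both, the lowest allergic library lay well above the highest untreated one, at log2 fold changes of 1.83 ± 0.40 (SE; adjusted p = 0.0122) and 1.58 ± 0.45 (SE; adjusted p = 0.0429). At equal depth miR-29b-3p was called in 9 of 10 draws and miR-29c-3p in 0. miR-29a-3p, the most abundant of the family, was at 14240, 17540 and 18060 CPM in allergic serum, against 8627, 6324 and 7922 CPM in untreated serum. It was not called by edgeR, with a log2 fold change of 1.12 and an adjusted p of 0.119, although its groups did not overlap either. The family's 3 tested members had 2 calls by edgeR, where 2.13% of all entries tested rose, with a median log2 fold change of 1.58. DESeq2 and the dispersion shared over 14 serum libraries each called all 3. None of the 3 was called by edgeR with total count scaling, without allergic library 1 or without allergic library 3. Over 18 alternatives miR-29b-3p was called in 15 and miR-29c-3p in 6.

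miR-342-3p lies in an intron of Evl on chromosome 12 and is abundant in lymphocytes. Its levels were 1007, 1831 and 2137 CPM in allergic serum, against 426, 353 and 596 CPM in untreated serum (log2 fold change 1.85 ± 0.45 SE, adjusted p = 0.0199). No allergic library was within the untreated range, and at equal depth it was called in 3 of 10 draws. The rest of the lymphocyte list did not follow it as a group. Of its 8 tested members, miR-342-3p and miR-29b-3p rose and none fell, at a median log2 fold change of 0.49. Of all entries tested 2.13% rose and 6.1% fell. miR-150-5p, abundant in mature resting B and T cells, was at 1726, 2613 and 3370.2 CPM in allergic serum, against 5796, 2354 and 2881 CPM in untreated serum, and its groups overlapped. miR-155-5p, which activated lymphocytes induce, had a log2 fold change of 0.50 (adjusted p = 0.571), and miR-181a-5p had one of -1.06 (adjusted p = 0.185).

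miR-188-5p and miR-362-3p come from a run of miRNA genes in an intron of Clcn5 on the X chromosome. Levels of miR-188-5p were 137, 157 and 177 CPM in allergic serum, against 43.1, 48.1 and 30.4 CPM in untreated serum (log2 fold change 1.96 ± 0.40 SE, adjusted p = 0.00785). Levels of miR-362-3p were 527, 697 and 765 CPM in allergic serum, against 183, 187 and 244 CPM in untreated serum (1.69 ± 0.42 SE, adjusted p = 0.0211). Their untreated libraries lay close together and far below the allergic ones. At equal depth miR-188-5p was called in 8 of 10 draws and miR-362-3p in 2. Within 50 kb of Mir188, a window chosen after these values were seen, 7 entries were tested and the groups of 6 did not overlap, all with allergic serum on the higher side, as for 16.2% of all entries tested. The 6 include miR-188-5p and miR-362-3p, whose calls led to the window, so their share is no separate support. The 4 of the 6 that were not called, miR-500-3p, miR-501-3p, miR-501-5p and miR-532-3p, had log2 fold changes of 1.09, 1.10, 0.96 and 0.89. The exception was miR-362-5p, the other strand of the miR-362 hairpin, at 97.7, 71.5 and 84.0 CPM in allergic serum, against 129, 61.9 and 72.5 CPM in untreated serum, with a log2 fold change of -0.005. The difference between the strands of that hairpin was not tested.

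**Figure D2:**
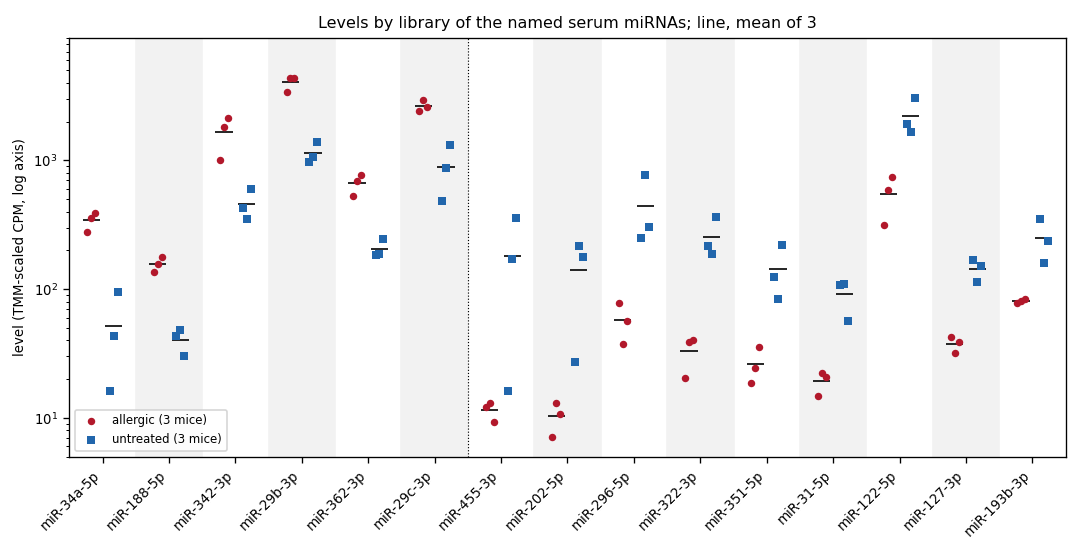
Each point is 1 serum library, with the level in TMM-scaled CPM on a log axis, for the 6 called entries that rose and the 9 that fell whose mean reached 50 CPM. In all 15 the 3 allergic points lie on 1 side of the 3 untreated points, and for miR-455-3p and miR-202-5p the lowest untreated point is that of the shallowest library.

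miR-455-3p, miR-202-5p and miR-455-5p had the 3 most negative fitted log2 fold changes among the calls. None of the 3 had enough counts to be tested in any of the 10 draws at equal depth. miR-455 is known from cartilage, and miR-202-5p from the supporting cells of the gonads in mice. Levels of miR-455-3p were 12.2, 13.01 and 9.25 CPM in allergic serum, against 16.2, 170.2 and 355 CPM in untreated serum, and those of miR-455-5p were 7.71, 5.78 and 9.25 CPM in allergic serum, against 10.8, 49.9 and 181 CPM in untreated serum. Untreated library 1 was close to the allergic libraries in both strands, with 3 and 2 counts, and the decrease rested on the other untreated libraries. The fitted log2 fold changes were -4.01 ± 0.75 (SE) and -3.50 ± 0.69 (SE), each with an adjusted p of 0.0075. Without untreated library 3 they were -3.07 for miR-455-3p (adjusted p = 0.024) and -2.13 for miR-455-5p (adjusted p = 0.054, not called). miR-202-5p showed the same arrangement, at 7.07, 13.01 and 10.8 CPM in allergic serum, against 26.96, 218 and 177 CPM in untreated serum (log2 fold change -3.82 ± 0.60 SE, adjusted p = 0.0028).

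miR-322-3p, miR-351-5p and miR-503-3p come from neighbouring genes on the X chromosome, a cluster whose miRNAs slow the cell cycle in differentiating mouse muscle cells. Levels of miR-322-3p were 20.6, 39.0 and 40.1 CPM in allergic serum, against 216, 187 and 361 CPM in untreated serum (log2 fold change -2.94 ± 0.46 SE, adjusted p = 0.0028). Levels of miR-351-5p were 18.6, 24.6 and 35.5 CPM in allergic serum, against 124, 84.3 and 219 CPM in untreated serum (-2.45 ± 0.46 SE, adjusted p = 0.0074). In both the groups were far apart in CPM, but the counts before scaling overlapped, as did those of miR-503-3p. Counts of miR-322-3p were 32, 54 and 52 in allergic serum and 40, 109 and 249 in untreated serum. Those of miR-351-5p were 29, 34 and 46 in allergic serum and 23, 49 and 151 in untreated serum. At equal depth miR-322-3p was called in all 9 draws that could test it, and miR-351-5p and miR-503-3p could be tested in none. Of the 11 entries of the cluster, 8 had enough counts to test, and 3 of them fell, at a median log2 fold change of -1.76 against -0.01 for all entries tested, of which 6.1% fell. The other 5 were between -2.41 (miR-503-5p, adjusted p = 0.0918) and -0.85 (miR-322-5p, adjusted p = 0.398). miR-322-5p, the abundant strand, was at 361, 399 and 418 CPM in allergic serum, against 189, 660.3 and 1266 CPM in untreated serum, so that its groups overlapped where those of miR-322-3p, from the same hairpin, did not.

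The Dlk1-Dio3 locus on chromosome 12 is imprinted, and its many miRNAs are read from the maternal chromosome as long noncoding transcripts. Of 51 entries of the locus 20 had enough counts to test. Of these 6 fell, none rose, and 19 of 20 had a negative log2 fold change, at a median of -1.14. Of all 328 entries 6.1% fell and 170 had a negative log2 fold change. miR-127-3p, the most abundant of the 6, was at 42.4, 31.8 and 38.5 CPM in allergic serum, against 167, 114 and 152 CPM in untreated serum (log2 fold change -1.93 ± 0.38 SE, adjusted p = 0.0075). The others, miR-541-5p, miR-431-5p, miR-379-5p, miR-382-5p and miR-329-3p, had log2 fold changes of -1.66 to -2.67 on counts of 4 to 35 per library. Before scaling, the counts of each of the 6 overlapped between the groups, as for the multiciliated miRNAs below. Such small counts limit them: none of the 5 could be tested in any of the 10 draws at equal depth, and without allergic library 2 the locus had 2 calls and without allergic library 3 it had 1. miR-127-3p could be tested in 3 of the draws and was called in 1, and miR-541-5p was at -1.84 without untreated library 1 (adjusted p = 0.0759). The 6 that fell lie between miR-431-5p at chr12:109590459-109590479 and miR-541-5p at chr12:109742422-109742446 (GRCm38.p6, plus strand).

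**Figure D3:**
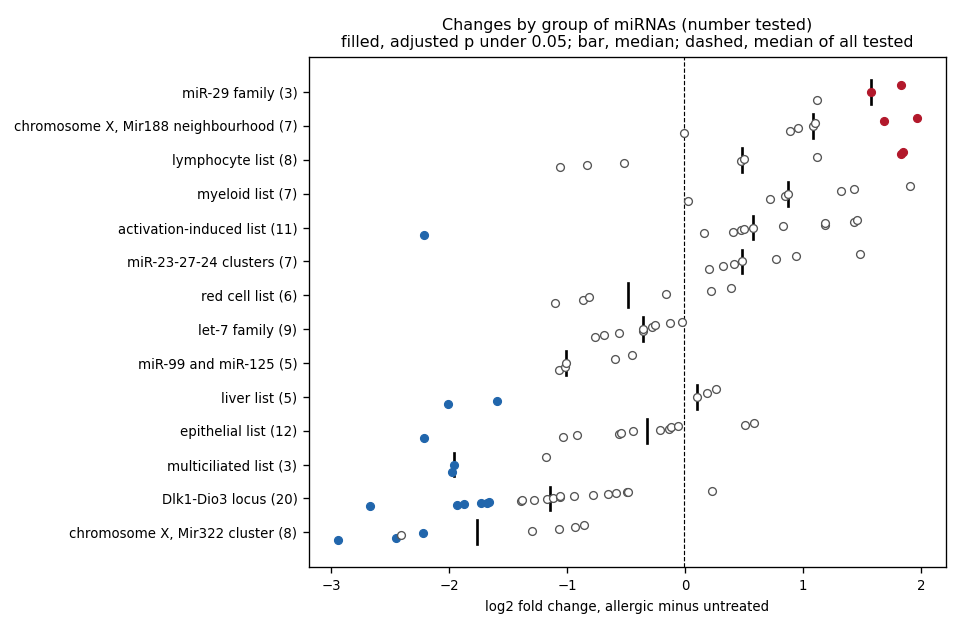
Each point is the log2 fold change, allergic over untreated serum, of 1 tested member of a list or neighbourhood, filled where it was called, with a bar at the median and a dashed line at the median of all 328 entries. All 8 members of the Mir322 cluster and 19 of 20 of the Dlk1-Dio3 locus lie below 0, and all 3 of the miR-29 family lie above 0.

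miR-122 makes up most of the miRNA of hepatocytes, and its level in blood is used as a marker of liver injury. Levels of miR-122-5p were 316, 584 and 750.0 CPM in allergic serum, against 1925, 1673 and 3068 CPM in untreated serum (log2 fold change -2.01 ± 0.47 SE, adjusted p = 0.0155). With 357 to 2116 counts per library it was one of the better counted decreases. Its groups did not overlap in CPM, although the counts before scaling did. At equal depth it was called in 9 of 10 draws. miR-122-3p, the other strand, fell by 1.59 on the log2 scale (adjusted p = 0.024). The liver list held 2 decreases among 5 tested, where 6.1% of all entries tested fell, and had a median of 0.10. The other liver entries, miR-192-5p, miR-194-5p and miR-802-5p, were not called, with log2 fold changes of 0.10, 0.27 and 0.18. Those 3 signs depended on the scaling: all 5 liver entries were negative with total count scaling (median -0.37) and with total counts without red cell entries (median -0.26).

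miR-296-5p was at 77.8, 37.6 and 56.3 CPM in allergic serum, against 248, 765 and 305 CPM in untreated serum (log2 fold change -2.94 ± 0.53 SE, adjusted p = 0.0074). It was the one entry called in all 10 draws at equal depth, with a log2 fold change of -3.21 to -2.46 there, and it was -2.14 without untreated library 2. miR-296-3p, from the same hairpin on chromosome 2, fell by 2.39 on the log2 scale (adjusted p = 0.0155) on 4 to 13 counts per library. miR-193b-3p, known from brown fat, was at 77.8, 80.9 and 84.0 CPM in allergic serum, against 350.5, 160 and 238 CPM in untreated serum (log2 fold change -1.61 ± 0.42 SE, adjusted p = 0.0262; called in 5 of the 9 draws at equal depth in which it could be tested). miR-193a-3p has the same seed and was not called, at a log2 fold change of 0.48 (adjusted p = 0.574).

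miR-31-5p, made by epithelium and by activated T cells, was at 14.8, 22.4 and 20.8 CPM in allergic serum, against 108, 110.0 and 56.5 CPM in untreated serum (log2 fold change -2.21 ± 0.42 SE, adjusted p = 0.0074). It was called in 4 of the 6 draws at equal depth in which it could be tested. It was the one call in the epithelial list, where 12 members were tested at a median log2 fold change of -0.33. It was also the one call in the list of miRNAs that activated immune cells induce. There it fell, and the other 10 of 11 tested members had positive log2 fold changes, as did 158 of all 328 entries. None of those 10 was called by edgeR, the nearest being miR-21a-3p at 1.46 (adjusted p = 0.066) and miR-221-3p at 1.19 (adjusted p = 0.0869). DESeq2 and the dispersion shared over 14 serum libraries each called 2 members of that list higher, miR-21a-5p among them, and 1 lower. edgeR likewise called none of the 7 tested miRNAs of the myeloid list, whose log2 fold changes were 0.03 to 1.91 with a median of 0.87. With the shared dispersion 1 of them was called higher. miR-223-3p, abundant in neutrophils, was at 3932, 8189 and 7119.6 CPM in allergic serum, against 2496, 3119 and 4903 CPM in untreated serum, with overlapping groups and an adjusted p of 0.278.

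miR-34b-3p and miR-34c-5p, made by multiciliated airway cells, fell by 1.96 and 1.97 on the log2 scale (adjusted p = 0.0449 and 0.0199), but their counts did not follow the depth of the libraries. miR-34c-5p had 22, 17 and 18 counts in allergic serum and 19, 24 and 22 counts in untreated serum, and miR-34b-3p had 8, 5 and 11 counts in allergic serum and 8, 9 and 13 counts in untreated serum. The counts themselves overlapped between the groups, and the lower levels in allergic serum came from dividing like counts by larger totals. Counts before scaling overlapped for other decreases too. Those of miR-382-5p were 23, 13 and 18 in allergic serum and 11, 19 and 26 in untreated serum. For miR-31-5p they were 23, 31 and 27 in allergic serum and 20, 64 and 39 in untreated serum. In the other libraries of the same set, which hold airway material, miR-34c-5p had 60659 counts in all, with 5518 to 7092 in each lavage fluid library, and the 122 counts of the 6 serum libraries together were 0.201% of that number. The same percentage was 0.435% for miR-34b-3p and 0.418% for miR-449a-5p, the third tested miRNA of the multiciliated list, which had 3 to 14 counts per serum library and was not called. For miR-122-5p, by contrast, the serum counts were 3330% of those in the other libraries of the set. Whether reads of the airway libraries contribute to the counts of the multiciliated miRNAs in serum was not tested.

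**Figure D4:**
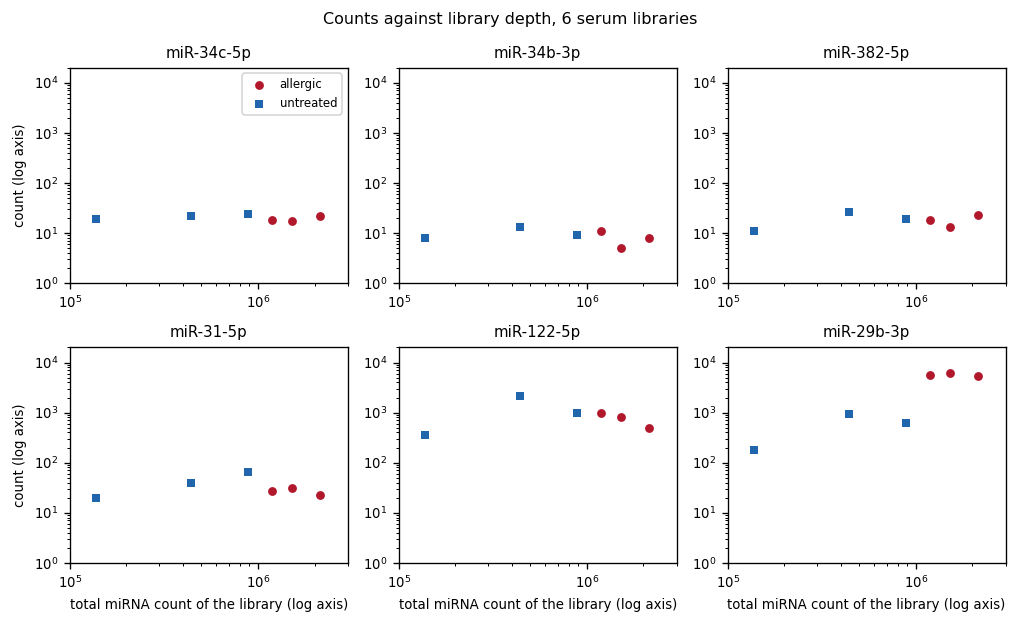
Counts of 6 called entries in each serum library are plotted against the total miRNA count of the library, both on log axes. Counts of miR-34c-5p stay between 17 and 24 while the totals span a 15.6-fold range, and those of miR-29b-3p are 5336 to 6093 in allergic serum and 181 to 951 in untreated serum.

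Entries that share a seed did not always share a direction. Among the called entries with a sequence, miR-362-3p rose and miR-329-3p, which has the same seed, fell to 12.2, 13.01 and 14.7 CPM in allergic serum, against 32.4, 43.0 and 47.8 CPM in untreated serum. miR-34a-5p rose, and miR-449a-5p, which has the same seed, had a log2 fold change of -1.18 and was not called. miR-193b-3p fell, and miR-193a-3p, with its seed, had one of 0.48 and was not called. By contrast all 3 tested members with the miR-29 seed and all 3 with the seed of miR-351-5p (with miR-125a-5p at -0.45 and miR-125b-5p at -1.02, neither called) lay on 1 side of 0. Entries from neighbouring genes mostly shared a sign. Of the 7 other tested entries within 10 kb of miR-322-3p on its strand all 7 had its sign, of the 6 around miR-127-3p all 6 did, and of the 6 around miR-362-3p 5 did. Of all 328 entries tested 170 had a negative log2 fold change and 158 a positive one.

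Of the let-7 family, which marks differentiated cells, 9 members were tested and none was called, with log2 fold changes of -0.76 to -0.03. The miR-99 and miR-125 miRNAs were likewise without a call among 5 tested, at a median of -1.01. All 7 tested miRNAs of the miR-23-27-24 clusters had positive log2 fold changes, as did 158 of all 328 entries, without a call by edgeR (1 was called higher with the shared dispersion). The sign depended on the scaling: with libraries scaled to their total counts only 4 of the 7 were positive, when the median of all entries was -0.36. The signs of all 27 called entries were the same under every scaling, filter and left-out library tried wherever they could be tested. The groups of all 27 did not overlap, so leaving out 1 library could hardly change a sign, and this is no separate support.

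The serum libraries of the other mice show where each group of set 2 stands. Fitted with 14 serum libraries together, 11 of 428 entries (2.57%) differed between the allergic against untreated change of set 2 and the allergic against immunized change of sets 3 and 4, and 9 of the 27 called entries were among them. The 27 were chosen by set 2 values that also enter this test, so their number among the 11 is no separate support. In sets 3 and 4 none of the 428 entries was called (0%), with 8 at an unadjusted p under 0.05 and none called by DESeq2. For each of the 7 miRNAs that rose, the 3 untreated libraries lay below all 11 libraries of allergic and immunized mice. The calls had already set the untreated libraries below the 3 allergic ones of set 2. Only the order against the 8 libraries of sets 3 and 4 was open. miR-34a-5p, for instance, was at 387 to 522 CPM in allergic serum of set 2, 237 to 640 CPM in allergic serum of sets 3 and 4 and 244 to 609 CPM in immunized serum, against 20.0 to 120 CPM in untreated serum. Its log2 change in set 2 exceeded that in sets 3 and 4 by 2.67 (adjusted p = 0.029), and that of miR-29b-3p by 1.90 (adjusted p = 0.0353). Untreated libraries were also the lowest in serum for miR-29a-3p and miR-21a-5p, which edgeR did not call, and for 35 of the 328 entries in all (10.7%). That share is over all entries. In the main comparison 53 of the 328 (16.2%) had allergic serum above untreated serum without overlap.

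For 10 of the 20 miRNAs that fell it was the 3 allergic libraries of set 2 that lay below all 11 others, including the 4 other allergic libraries. This was so for 15 of the 328 entries (4.57%). The calls had already set these 3 libraries below the untreated ones. Only the order against the 8 libraries of sets 3 and 4 was open. In the main comparison 44 of the 328 entries (13.4%) had allergic serum below untreated serum without overlap. miR-202-5p was at 9.76 to 16.6 CPM in allergic serum of set 2, 501 to 741 CPM in allergic serum of sets 3 and 4 and 200 to 832 CPM in immunized serum, against 33.3 to 295 CPM in untreated serum. miR-322-3p was at 28.4 to 53.2 CPM in allergic serum of set 2, 252 to 374 CPM in allergic serum of sets 3 and 4 and 101.3 to 240 CPM in immunized serum, against 253 to 454 CPM in untreated serum. In both miRNAs no allergic library of sets 3 and 4 was as low as any allergic library of set 2. The change in set 2 was lower than that in sets 3 and 4, by a difference of -4.7 for miR-202-5p (adjusted p = 7.5e-04) and of -3.48 for miR-322-3p (adjusted p = 7.5e-04). Of the remaining decreases 3 had the untreated libraries above all 11 others (miR-31-5p, miR-34c-5p and miR-296-3p), as for 8 of the 328 entries (2.44%). That order too was set in part by the calls. Red cell entries took 51.4% to 70.6% of the counts in the 6 libraries of set 2 and 21.9% to 56.5% in the 8 of sets 3 and 4. Because untreated serum stands only in set 2, that set and the untreated state cannot be told apart in any comparison with sets 3 and 4.

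**Figure D5:**
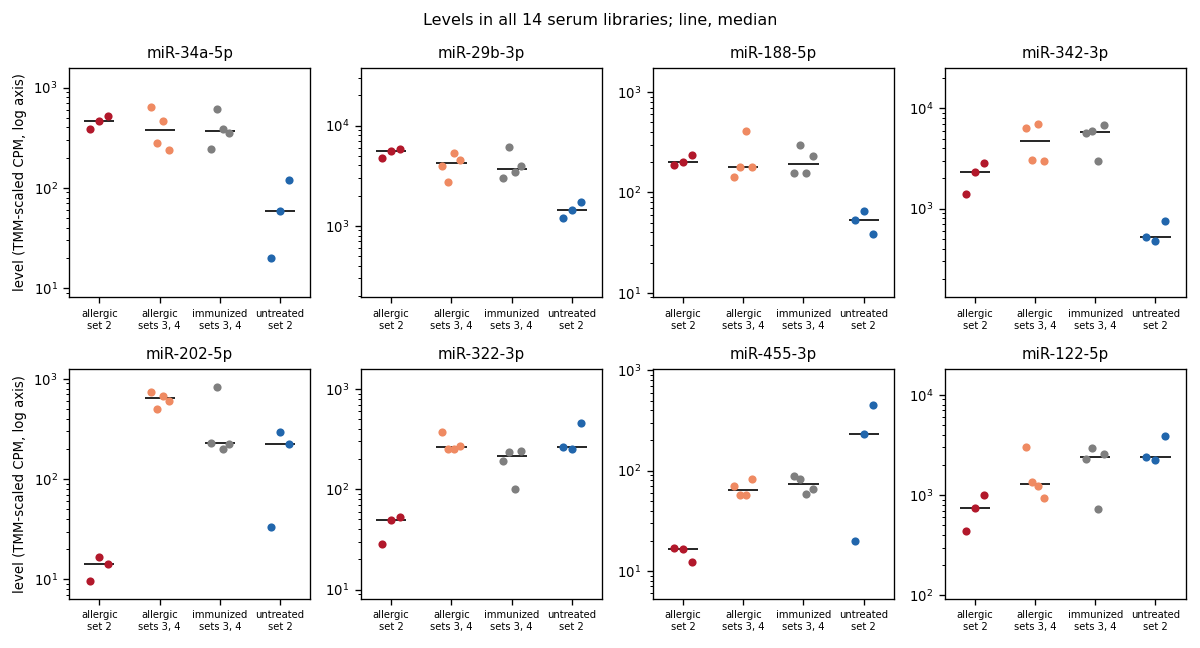
Levels of 8 called miRNAs in TMM-scaled CPM (log axis) in all 14 serum libraries, by group and library set, with a line at the median. In the upper row, which holds miRNAs that rose, the untreated libraries are lowest, and for miR-202-5p, miR-322-3p and miR-455-3p in the lower row the allergic libraries of set 2 are lowest.

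The labels do not say whether lavage and serum libraries came from the same mice. In the lavage fluid of set 2, 61 of 302 entries (20.2%) differed between allergic and untreated mice. Of the 22 called serum entries that could be tested there, 6 were called in fluid, 1 higher (miR-188-5p, log2 fold change 1.74) and 5 lower, among them miR-322-3p at -4.15, miR-351-5p at -3.78 and miR-31-5p at -1.44. The change differed between serum and fluid for 31 of 302 entries (10.3%) and for 7 of the 22. The 22 were chosen by their serum change, which also enters this test, so the 7 are no separate support. The same holds for the test against lavage cells below. miR-34a-5p rose in serum and had a log2 fold change of -0.20 in fluid, a difference of 2.71 (adjusted p = 0.0070). miR-342-3p had one of 0.03 in fluid, a difference of 1.68 (adjusted p = 0.0309), and both strands of miR-455 had a lower change in serum than in fluid, by a difference of -3.69 for miR-455-3p and -3.71 for miR-455-5p (adjusted p = 0.0098 each). In lavage cells of set 2, where 109 of 305 entries (35.7%) were called, 11 of 21 called serum entries were called too, 3 higher (miR-188-5p, miR-362-3p and miR-29c-3p) and 8 lower. Serum and cells differed in their change for 41 of 305 entries (13.4%) and for 4 of the 21. In all 4 the serum change was the more positive, by 3.56 for miR-34a-5p (adjusted p = 0.0045), by 3.60 for miR-34a-3p (adjusted p = 0.0097), by 2.66 for miR-342-3p (adjusted p = 0.0128) and by 1.78 for miR-29b-3p (adjusted p = 0.0128).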

How the data were processed

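Small RNA was sequenced from serum of 1 mouse per library, with libraries built from 20 to 65 ng of RNA and random nucleotides on the 3' adapter, per the labels' protocols. Adapter trimming with cutadapt, the use of DESeq2 and the mm10 build are named in the submitters' processing notes with no version; no aligner is given in the sources used here. The values used are the expected counts per mature miRNA deposited by the authors, 1 table per library set, in which 6.18% of the serum values were not whole because reads matching several entries were split. The deposited RPM table was not used. Counts were rounded, which changed totals by at most 0.00509%, and then tested as whole counts; counts per mature sequence do not resolve a miRNA made from several genes.

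All columns matched a labelled library (0 unmatched). Serum totals were 137638 to 2143704, so precision was lowest in untreated library 1. Low entries were removed by filterByExpr (minimum count 10); libraries were scaled by TMM and tested with edgeR 4.0.16 (glmQLFit, robust) in R 4.3.3, with Benjamini-Hochberg adjustment over all entries tested and a call at an adjusted p under 0.05. A log2 fold change is allergic minus untreated, its SE is that value over the root of F, and CPM is TMM-scaled counts per 1000000, which can exceed that number. Differences between changes were tested as interactions. Single values per library were tested by two-sided exact permutation. On simulated counts, 82.8% of entries changed by a log2 of 2 and 100% of those changed by 3 were called, with 0 false calls among 277 unchanged entries. The simulation gave all entries and both groups 1 common dispersion and held no outlying library. The real groups differed in spread (median SD of log2 CPM 0.262 and 0.738), so these rates do not carry over to them.

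Named entries are up to 12 calls per direction, by size of log2 fold change, with a mean of at least 50 CPM (6 and 9 qualified), the 5 most abundant, and members of lists. miR-34a-3p, miR-455-5p, miR-296-3p and the neighbours of Mir188 were named outside the rule, after their values were seen. The comparison, the lists and the rule were chosen with earlier results of these data known. Lists without a call by edgeR were platelet (median log2 fold change -0.11), miRNAs that red cells share (0.25), endothelial (0.19), muscle (0.20), mesenchymal (-0.76), brain (0.71), pancreas (0.68), miR-17-92 (0.33), the miR-15 family (0.23), miR-30 (-0.0005), miR-181 (-0.56), miR-130-301 (0.59), miR-10 (-0.02) and Sfmbt2 (0.27); of these, DESeq2 called 1 platelet member higher and 1 mesenchymal member lower. Alternatives changed the scaling, filter, depth, tool, samples and replicate block; 2 that left out untreated library 1 were chosen after seeing the data.

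Same-numbered libraries of the groups had correlations of their deviations from the group mean of -0.114, -0.41 and 0.123, and the labels tie no numbers together, so the numbers do not pair the mice. No pair of libraries of the same group agreed within sampling noise, and pairs across the groups were not checked. Sequences and positions are from RefSeq and host genes from GENCODE, both on GRCm38, the build mm10 names.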

Additional observations from a re-analysis of the deposited data

Results flagged for a closer look

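The changes of 9 called serum miRNAs differed from the allergic against immunized change in serum of library sets 3 and 4 by an interaction test across 428 entries. The called miRNAs were chosen by set 2 serum values that also enter this test and those that follow. The differences are therefore not independent of that choice. The change in set 2 was lower by a log2 difference of -4.7 for miR-202-5p, -3.48 for miR-322-3p, -2.68 for miR-296-5p, -2.90 for miR-351-5p, -3.84 for miR-455-3p, -4.05 for miR-455-5p and -2.57 for miR-503-3p. It was higher by 2.67 for miR-34a-5p and 1.90 for miR-29b-3p.

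Serum and lavage fluid of set 2 differed in their change for 7 of them. The serum change was lower by -3.69 for miR-455-3p, -3.71 for miR-455-5p, -2.72 for miR-34c-5p and -2.80 for miR-34b-3p, and higher by 2.71 for miR-34a-5p, 3.16 for miR-34a-3p and 1.68 for miR-342-3p. For miR-34c-5p and miR-34b-3p the serum counts did not follow depth, as given above.

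Serum and lavage cells differed for 4. The serum change was higher by 3.56 for miR-34a-5p, 3.60 for miR-34a-3p, 2.66 for miR-342-3p and 1.78 for miR-29b-3p.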

How the results depend on the processing

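All 27 called entries kept their direction under each alternative in which they could be tested. Because their groups did not overlap, a kept direction says little about how firm the calls are. The number called, 27 as reported, was 0 with total count scaling, 10 at a minimum count of 50 (3 higher, 7 lower) and 6 with libraries thinned to the shallowest (3 higher, 3 lower), where fewer entries could be tested. Leaving out single libraries gave 0 to 25 calls, 0 to 8 of them higher and 0 to 19 lower. The number higher, 7 as reported, was 4 with total counts without red cell entries, 12 with DESeq2's test, 15 with dispersion shared over 14 serum libraries and 11 without untreated library 1 and allergic library 1, an alternative chosen after seeing the data; the cause was not tested. The replicate block gave 31 calls, with all 27 among them.

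The number of entries whose change differed from sets 3 and 4, 11 as reported, was 7 to 13 on leaving out single libraries (7 without allergic library 2 or 3), and that from lavage cells, 41 as reported, was 23 to 60 (23 to 26 without any 1 allergic library or untreated library 2), with 25 under a replicate block within group. The difference in the log2 ratio of miR-451a was -0.38 to miR-23a-3p and 0.88 to miR-191-5p (exact permutation p = 0.3). At equal depth 15 of the 27 calls could not be tested.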

Other observations

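let-7j was tested and not called (log2 fold change -1.69 ± 3.00 SE, adjusted p = 0.803), and had 0, 766 and 2 counts in allergic serum and 266, 0 and 262 counts in untreated serum. In the serum libraries of sets 3 and 4 it had 381, 1, 398 and 4 counts in allergic mice and 416, 574, 0 and 2 counts in immunized mice. Each library thus had either 262 or more counts or at most 4, in allergic, untreated and immunized mice alike.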
